A study of Mus musculus with 6 samples.

Results

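NF-kB is a family of dimeric transcription factors built from 5 subunits, and the cell holds it in check with inhibitor proteins whose genes it switches on itself. The 10 genes described here are the subunit genes Rela, Relb, Rel, Nfkb1 and Nfkb2 and the feedback genes Nfkbia, Nfkbie, Nfkbiz, Bcl3 and Tnfaip3. They were listed by symbol, in a choice made with earlier results of these data known. The pathway lists further on were chosen in the same way. All 10 genes were found among the 36047 genes with a transcript in the files. They also passed the filter on low counts that left 13451 genes for testing. The cells were wild-type MLE-12, a mouse lung epithelial line derived from tumours driven by a viral large T antigen, whose transformation all groups therefore share. In 3 libraries the cells had received cigarette smoke extract (CSE) at 5% and an optical density of 2, given at 30% density. In the other 3 an equal volume of phosphate-buffered saline (PBS) was given, and all were collected after 24 h. The protocol text describes extraction from lung tissue, while the sample labels name the cell line. Whether the 3 libraries in a group are separate cultures is not stated in the labels, so a p-value here reflects spread among libraries, possibly of a technical kind.

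In resting cells, dimers such as p50 with RELA are held in the cytoplasm by IkappaB proteins, among them IkappaB-alpha (Nfkbia) and IkappaB-epsilon (Nfkbie). A signal activates the IkappaB kinase complex, IkappaB is degraded and the dimer enters the nucleus, where it induces Nfkbia, Tnfaip3 and other genes that end the response. The relatives IkappaB-zeta (Nfkbiz) and BCL3, act in the nucleus, where they bind p50 or p52 and change which target genes are transcribed. In airway epithelium the pathway is known for driving neutrophil-attracting chemokines and acute phase genes.

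Promoter sequences were available for 7 of the 10 genes, in windows of 250 bases before to 50 bases after each RefSeq start on GRCm38.p6. Relb, Nfkb1 and Nfkbiz had no window and were not searched. The search was for the 10-base NF-kB consensus (the kappaB site) on both strands, counting overlapping matches. It was found in at least 1 window of 6 of the 7 genes, Rela being the one with no match, and in 8 of their 10 windows, against 8.46% of all 32851 windows. A match is a description of letters and does not show binding. For 5 genes, 1 match that lies wholly upstream of the start is printed 5′ to 3′ on the gene's strand, with the matching bases in capitals. These are the searched genes with such a match, while the match of Bcl3 does not lie wholly upstream.
Nfkbia (chr12:55492659-55492684, minus strand, match starting 29 bases upstream): actggcttGGAAATTCCCcgcgcctg
Nfkb2 (chr19:46304690-46304715, plus strand, 39 bases upstream): atcgtcacGGGAATTCCCcccctcgg
Rel (chr11:23771044-23771069, minus strand, 92 bases upstream): taagcagcGGGAAATCCCcccccctc
Tnfaip3 (chr10:19015405-19015430, minus strand, 12 bases upstream): tttccatcGGAAATCCCCctgttggc
Nfkbie (chr17:45555586-45555611, plus strand, 106 bases upstream): agcaaacaGGGGGATTCCggaggggc

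Of the 10 genes, Nfkbiz rose, Rela fell and 8 were not called (edgeR quasi-likelihood fit, threshold 0.05 on p after Benjamini-Hochberg adjustment across all genes). Across all genes tested, 11.4% were called, 4.32% higher and 7.12% lower, so 2 calls in 10 genes is a share near the background. The median log2 change of the 10 was 0.03, against 0.01 for all genes. The rise of Nfkbiz was more than 2-fold, as in 88 of all genes tested (0.654%), and it was the 71st largest of the 581 rises by log2 change. None of the 5 genes whose kappaB matches are printed above was called in either direction (edgeR, with 11.4% of all genes called). Nfkb2, 1 of them, had an unadjusted edgeR p under 0.05, and DESeq2 and limma-voom called none of them either. No call among 5 genes is near that share, and Nfkbiz was not among the genes with a promoter to search.

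**Figure D1:**
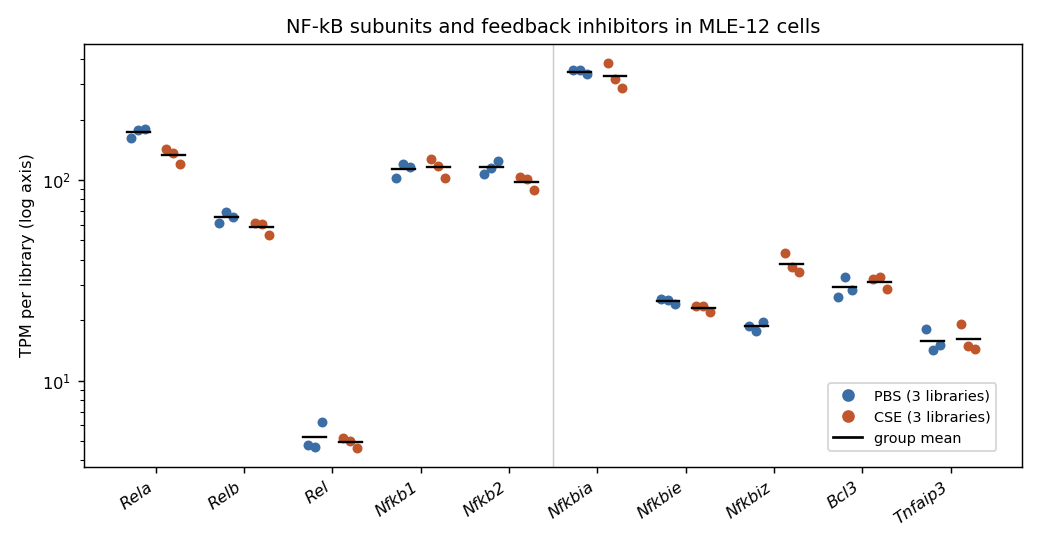
Level of each gene in every library in TPM (an abundance per transcript length, scaled to the same sum in each library; log axis), with the 5 subunit genes left of the grey line and the 5 feedback genes right of it; points are libraries and bars are group means of 3. The CSE points of Nfkbiz (34.7 to 43.1 TPM) lie above all of its PBS points (17.7 to 19.5), and those of Rela (120 to 142) lie below all of its PBS points (163 to 179).

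The genes covered a wide range of levels in PBS cells. On the TPM scale, which corrects for length, Nfkbia was the highest at 348 ± 7.61 TPM (mean and SD, n = 3), followed by Rela at 173 ± 9.17, Nfkb2 at 116 ± 8.67 and Nfkb1 at 113 ± 9.19. Relb stood at 65.3 ± 4.02, Bcl3 at 29.1 ± 3.39, Nfkbie at 24.9 ± 0.746, Nfkbiz at 18.6 ± 0.904, Tnfaip3 at 15.7 ± 2.00 and Rel at 5.21 ± 0.853. Neighbours in this order did not overlap between PBS libraries, except Nfkb2 with Nfkb1 and Nfkbiz with Tnfaip3. In CSE cells Nfkbiz moved from rank 8 to rank 6, past Bcl3 and Nfkbie, with a range of 34.7 to 43.1 TPM against 28.5 to 32.8 for Bcl3. The order depends on which transcripts are counted: with protein-coding transcripts only, Nfkbia had 168 TPM in PBS and overlapped Rela at 166, and Nfkb1 stood at 39.1 TPM, below Relb. The split of Nfkb1 between its transcripts rests on little sequence, as described further on. Nfkb1 (chromosome 3, 135584655 to 135691547), Nfkb2 (chromosome 19, 46304320 to 46312385) and Bcl3 (chromosome 7, 19808462 to 19822770) overlap other annotated genes, so reads there may be shared; the other 7 overlap none.

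Among the subunits, RELA (p65) carries the main activation domain of the classical dimer. Rela (ENSMUSG00000024927.8, chromosome 19, 5637483 to 5648130, plus strand, GRCm38) was at 163, 178 and 179 TPM with PBS and at 142, 136 and 120 TPM with CSE. Every CSE library lay below every PBS library. Its log2 change was −0.32 ± 0.07 (SE; edgeR adjusted p = 0.0115), a fold of 0.801 with a 95% interval of 0.722 to 0.889, on 14015 estimated counts in PBS and 11541 in CSE. This call was lost without CSE replicate 2 (−0.34, edgeR adjusted p = 0.0544) or CSE replicate 3 (−0.28, adjusted p = 0.081). The full-length coding transcript, Rela-201, held 96.1% of the gene's TPM in PBS (mean of 3) and 93.5% to 95.9% in CSE.

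Nfkb2 encodes p100, the precursor of p52 and itself an inhibitor of the RELB arm of the pathway. It had 107, 115 and 125 TPM in PBS and 103, 102 and 89.3 TPM in CSE, so its groups did not overlap either. It was not called, at −0.17 ± 0.07 (edgeR adjusted p = 0.151; fold 0.891, interval 0.803 to 0.989). Groups that do not overlap in TPM are common here, since 27.2% of all genes tested show them. Besides Rela, Nfkb2 and Nfkbiz, they were found in Nfkbie, so in 4 of the 10 genes.

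Nfkb1 encodes p105, which is processed to p50, the usual partner of RELA. Its levels overlapped, with 103, 120 and 116 TPM in PBS and 127, 118 and 102 TPM in CSE (0.10 ± 0.07; edgeR adjusted p = 0.408; fold 1.07, interval 0.960 to 1.20). Relb, the activating subunit of the non-canonical arm and the main partner of p52, had 61.2, 69.2 and 65.4 TPM in PBS and 61.4, 60.4 and 53.1 TPM in CSE (fold 0.951, interval 0.858 to 1.05). Rel, which encodes c-REL and is best known in lymphocytes, had 4.77, 4.66 and 6.19 TPM in PBS and 5.17, 4.97 and 4.62 TPM in CSE (fold 0.998, interval 0.855 to 1.16). For each of these subunits the interval excludes a change as large as that of Nfkbiz, but smaller changes remain possible.

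The subunits were also described as shares of their summed TPM. That sum was 438, 488 and 491 TPM with PBS and 439, 421 and 369 TPM with CSE. For each of the 5, limma on log2(TPM + 1) gave a lower change than the edgeR fit to counts. The changes were −0.39 against −0.32 for Rela, −0.16 against −0.07 for Relb and −0.06 against −0.003 for Rel. They were 0.03 against 0.10 for Nfkb1 and −0.24 against −0.17 for Nfkb2. The shares in a library add up to a fixed whole, so a fall of Rela raises the shares of the others. Rela made up 37.1%, 36.5% and 36.4% of the summed TPM of the 5 subunits with PBS and 32.4%, 32.3% and 32.4% with CSE. Nfkb1 made up 23.4%, 24.7% and 23.6% in PBS and 28.9%, 28.1% and 27.7% in CSE. Both shares were apart in all libraries, Rela lower and Nfkb1 higher in CSE, although the level of Nfkb1 itself overlapped and was not called. Relb (13.8% in PBS and 14.2% in CSE), Nfkb2 (24.5% and 24.0%) and Rel (1.10% and 1.20%) had shares that overlapped between groups. The shares were not tested, and the Nfkb1 share rests mostly on transcripts that are not the full-length coding one, as described further on.

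The feedback gene that moved was Nfkbiz (ENSMUSG00000035356.17, chromosome 16, 55811375 to 55838899, minus strand). It stood at 18.6, 17.7 and 19.5 TPM with PBS and at 43.1, 36.9 and 34.7 TPM with CSE. The highest PBS library was far below the lowest CSE library. The log2 change was 1.13 ± 0.08 (edgeR adjusted p = 1.25e-05), a fold of 2.20 with a 95% interval of 1.93 to 2.49, on 2029 estimated counts in PBS and 4543 in CSE. With any 1 library left out the log2 change lay between 1.07 and 1.18 and the call stood.

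The other feedback genes were not called. Nfkbia, the most rapidly induced inhibitor and a common readout of NF-kB activity, had 352, 352 and 339 TPM in PBS and 383, 321 and 286 TPM in CSE. The CSE libraries spread to both sides of the PBS libraries (0.07 ± 0.09; edgeR adjusted p = 0.693; fold 1.05, interval 0.912 to 1.20). Tnfaip3 encodes A20, a ubiquitin-editing enzyme that shuts off signalling from the TNF and Toll-like receptors, and had 18.0, 14.2 and 15.0 TPM in PBS and 19.1, 14.8 and 14.3 TPM in CSE (0.12 ± 0.13; edgeR adjusted p = 0.604; fold 1.09, interval 0.894 to 1.32). In Tnfaip3, replicate 1 was the highest library of each group. The kappaB match printed for Tnfaip3 lies beside the start of Tnfaip3-201 (19015410), which held 9.50% of the gene's TPM in PBS by estimate. Tnfaip3-202, with 85.2%, starts at 19011963.

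Nfkbie, which encodes IkappaB-epsilon, had 25.5, 25.2 and 24.1 TPM in PBS and 23.6, 23.7 and 21.9 TPM in CSE. These TPM values did not overlap, but on the count scale the difference was small (−0.03 ± 0.08; edgeR adjusted p = 0.876; fold 0.981, interval 0.863 to 1.12). Bcl3, the nuclear relative that binds p50 and p52 homodimers, had 26.2, 32.9 and 28.4 TPM in PBS and 31.9, 32.8 and 28.5 TPM in CSE (0.08 ± 0.11; edgeR adjusted p = 0.669; fold 1.06, interval 0.899 to 1.25). All 4 intervals end below the lower bound of Nfkbiz.

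**Figure D2:**
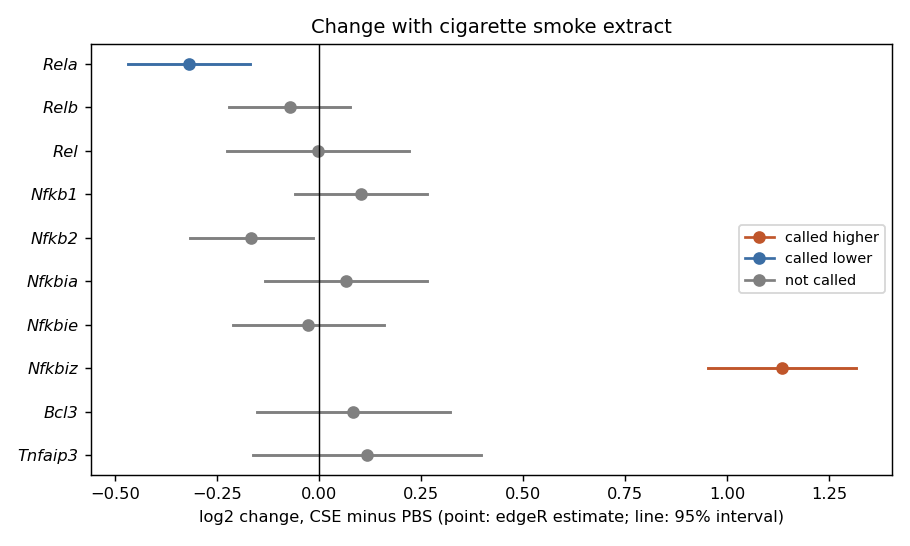
Log2 change with CSE for each gene, with the edgeR estimate as a point and its 95% interval as a line; orange marks the gene called higher, blue the gene called lower and grey those not called. Nfkbiz stands alone at 1.13, while the other 9 estimates lie between −0.32 and 0.12.

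Within each library Nfkbiz was also set against the other genes, which removes library scaling. Nfkbiz was chosen for these ratios because it had risen, and all 9 share its values, so they restate that rise, are not independent and are given as a description with no test. Its log2 ratio to Nfkbia was −4.24, −4.31 and −4.12 with PBS and −3.15, −3.12 and −3.04 with CSE, a difference of 1.12. Its ratio to Bcl3, the other nuclear member, was −0.49, −0.89 and −0.54 in PBS and 0.43, 0.17 and 0.28 in CSE, so Nfkbiz was the lower of the pair in every PBS library and the higher in every CSE library. The 9 ratios differed by 0.94 (to Bcl3) to 1.42 (to Rela), and in none did the groups overlap.

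Nfkbiz has annotated transcripts that start at different places and encode different forms of IkappaB-zeta. Nfkbiz-204 starts at 55822138, and Nfkbiz-201, Nfkbiz-203 and Nfkbiz-205 start upstream at 55838899. Nfkbiz-204 and Nfkbiz-201 share 1 coding sequence of 2187 bases (728 residues), whereas Nfkbiz-202 and Nfkbiz-203 start translation later and encode the last 629 of those residues, without the first 99. The first 30 coding bases of each form are shown, with the start codon in capitals, because they mark where the long and the short protein begin.
Long form (Nfkbiz-201 and Nfkbiz-204): ATGatcgtggacaagctgctggacgacagc
Short form (Nfkbiz-202 and Nfkbiz-203): ATGggggttggcaggcagcagagaggcccc

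Nfkbiz-204, the long form from the downstream start, carried most of the gene's signal and of its rise. It had 16.4, 16.6 and 17.4 TPM in PBS and 41.0, 32.8 and 29.2 TPM in CSE, and rose by 1.12 ± 0.11 on the log2 scale (edgeR over 33930 transcripts, adjusted p = 0.016, where 0.908% of transcripts were called). With any 1 library left out the log2 change lay between 1.00 and 1.20, but the transcript call was lost each time (adjusted p between 0.0595 and 0.102). The call was also lost with the replicate number as a block (1.11, adjusted p = 0.222).

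Transcripts from the upstream start were minor. Nfkbiz-203 had 1.51, 0 and 1.78 TPM in PBS and 1.28, 3.49 and 4.49 TPM in CSE, so the groups overlapped (1.61 ± 1.26; edgeR adjusted p = 0.751). Nfkbiz-205, which is not coding, had 0.727, 1.14 and 0.357 TPM in PBS and 0.885, 0.659 and 1.07 TPM in CSE (0.31 ± 0.55; adjusted p = 0.904). Nfkbiz-201, Nfkbiz-202 and Nfkbiz-206 are listed at 0 in every library.

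The share of the gene's TPM in Nfkbiz-204 was 88.0%, 93.6% and 89.1% in PBS and 94.97%, 88.8% and 84.0% in CSE (two-sided exact permutation p = 0.9; smallest possible 0.1). A shift between start sites was not detectable at this precision. The split rests on little sequence, since 22 of the 3597 words of 31 bases in Nfkbiz-204 and 29 of the 3737 in Nfkbiz-203 occur in no other transcript, against 849 of 1361 in Nfkbiz-205. None of the words of Nfkbiz-203 or Nfkbiz-204 occurs in another gene, so the gene total is not affected by this.

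**Figure D3:**
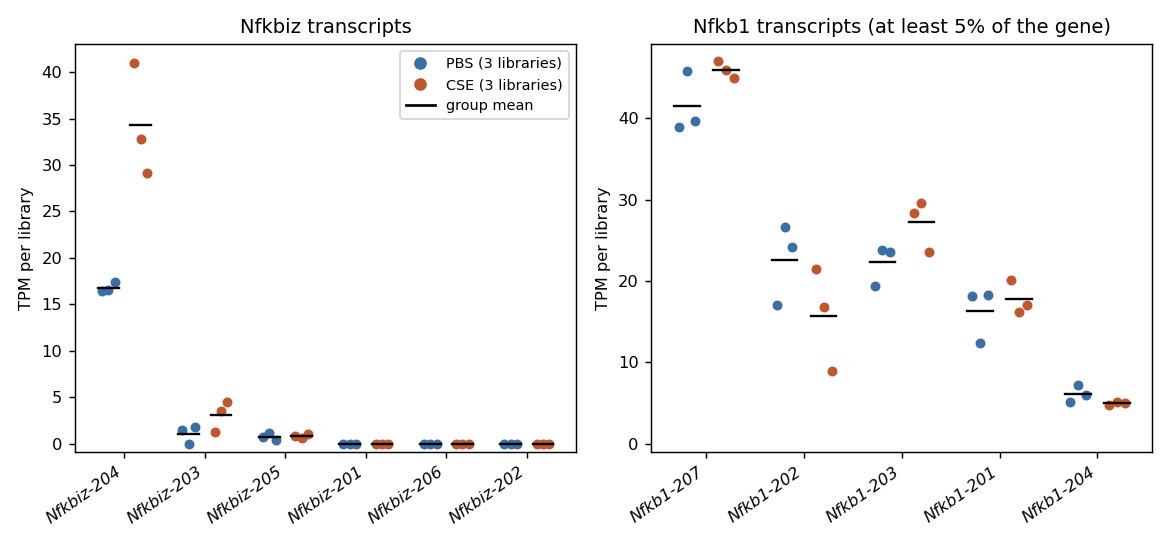
TPM of each Nfkbiz transcript (left) and of the Nfkb1 transcripts with at least 5% of the gene (right) in every library; points are libraries and bars are group means of 3. Nfkbiz-204 is the one Nfkbiz transcript in which CSE (29.2 to 41.0 TPM) lies above PBS (16.4 to 17.4). By estimate the Nfkb1 TPM is led by Nfkb1-207 (38.9 to 47.0 TPM), not by the full-length Nfkb1-201 (12.4 to 20.1), a split that rests on little sequence.

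In Nfkb1 the full-length coding transcript was not the most abundant by estimate. Nfkb1-201, which spans the whole gene, had 18.1, 12.4 and 18.3 TPM in PBS and 20.1, 16.2 and 17.1 TPM in CSE. Nfkb1-207, annotated as a target of nonsense-mediated decay, and Nfkb1-203, a shorter coding transcript, both begin within the gene. Nfkb1-207 had 38.9, 45.8 and 39.7 TPM in PBS and 47.0, 46.0 and 45.0 TPM in CSE, and Nfkb1-203 had 19.4, 23.8 and 23.6 TPM in PBS and 28.4, 29.6 and 23.6 TPM in CSE. Neither was called (edgeR adjusted p = 0.379 and 0.232). The intron-retaining Nfkb1-202 had 17.1, 26.6 and 24.1 TPM in PBS and 21.4, 16.9 and 8.94 TPM in CSE, lowest in CSE replicate 3. When counts were summed over protein-coding transcripts only, an alternative chosen after seeing the data, Nfkb1 was called higher (0.27 ± 0.07, edgeR adjusted p = 0.0475). That sum depends on the same split between transcripts.

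Nfkbia was split almost evenly in TPM between its coding transcript and the intron-retaining Nfkbia-202, which is shorter at 701 bases. Nfkbia-201 had 190, 148 and 167 TPM in PBS and 182, 161 and 178 TPM in CSE. Nfkbia-202 had 162, 204 and 172 TPM in PBS and 200, 160 and 108 TPM in CSE, again lowest in CSE replicate 3. Of the 18 transcripts in 7 genes that were compared by share, none passed adjustment (smallest exact permutation p = 0.1, adjusted p = 0.75), and this design cannot reach 0.05.

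Upstream of the subunits, 1 of 5 IkappaB kinase genes was called higher (Ikbkg) and 1 lower (Ikbkb), where 11.4% of all genes were called. Ikbkg encodes NEMO, the scaffold without which the classical kinase complex does not form, and had 17.9, 19.5 and 19.4 TPM in PBS and 34.9, 32.0 and 31.8 TPM in CSE. Every CSE library was above every PBS library (0.80 ± 0.07; edgeR adjusted p = 3.35e-05; fold 1.74). The estimate placed the rise in Ikbkg-202, the transcript with 74.5% of the gene's TPM in PBS, at 13.3, 14.6 and 14.5 TPM in PBS and 24.4, 26.1 and 25.4 TPM in CSE (0.94 ± 0.07; edgeR over transcripts, adjusted p = 0.00945). Ikbkg (chromosome X, 74393290 to 74453854, plus strand) overlaps G6pdx on the other strand (74409483 to 74429194), and reads of overlapping genes cannot be told apart where strand is not used. G6pdx, the first enzyme of the pentose phosphate pathway, had 82.9 to 87.8 TPM in PBS and 71.3 to 84.4 TPM in CSE and was not called (−0.05 ± 0.08; edgeR adjusted p = 0.73), and 0.133% of the words of 31 bases in Ikbkg-202 occur in other genes. Of its 4500 words, 0 occur in that transcript alone, so its share of the gene rests on no sequence of its own.

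Ikbkb, the catalytic kinase of the classical arm, had 64.4, 78.1 and 74.0 TPM in PBS and 59.6, 56.9 and 54.3 TPM in CSE (−0.27 ± 0.08; edgeR adjusted p = 0.045). Leaving out any 1 library other than PBS replicate 1 ended this call (edgeR adjusted p between 0.0841 and 0.182), and so did the replicate number as a block (adjusted p = 0.119). Ikbkb was also not called with scaling by library size alone, an offset for effective length, limma fits to log2 TPM or protein-coding transcripts only. The other 3 of the 5 genes, Chuk, Ikbke and Tbk1, were not called.

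Of 15 receptor genes tested out of 16 listed, Tlr2 rose, 3 fell and 11 were not called, with a median of −0.01. Over all genes 4.32% were called higher and 7.12% lower, and 6 of the 15 had an unadjusted p under 0.05. Tlr2, a receptor for bacterial lipoproteins, had 22.9, 19.0 and 20.4 TPM in PBS and 28.0, 28.2 and 28.8 TPM in CSE (0.53 ± 0.10; edgeR adjusted p = 0.00563). Tnfrsf12a, the receptor for TWEAK, had 318, 308 and 317 TPM in PBS and 220, 238 and 207 TPM in CSE (−0.41 ± 0.08; edgeR adjusted p = 0.00794). Il1rap (−0.32 ± 0.09) and Il18r1 (−0.80 ± 0.21) fell with all libraries, but leaving out PBS replicate 2 or 3 ended both calls, as did leaving out CSE replicate 1 or 2. The Il1rap call also ended without CSE replicate 3.

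Of 28 genes for adaptors and upstream kinases, 1 rose and 2 fell, with a median of −0.01, a share of calls near the 11.4% of all genes. The 2 that fell were Card10, which encodes a scaffold protein, and Malt1, which encodes a protease. Card10 had 11.5, 11.8 and 10.6 TPM in PBS and 6.90, 6.50 and 4.61 TPM in CSE (−0.85 ± 0.11; edgeR adjusted p = 0.000593), and Malt1 had 11.7, 10.8 and 12.6 TPM in PBS and 8.17, 8.67 and 8.21 TPM in CSE (−0.48 ± 0.08; adjusted p = 0.00316). Irak1, a kinase below the IL-1 and Toll-like receptors, had TPM values that overlapped between groups, and rose by 0.24 ± 0.06 (edgeR adjusted p = 0.035). Any 1 library left out, other than PBS replicate 1, ended the Irak1 call (adjusted p between 0.0556 and 0.135). Without PBS replicate 1, 3 genes of this list were higher, Irak1, Irak2 and Myd88.

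Among 19 other inhibitors of the pathway, none was called higher and 2 were called lower, near the 11.4% called among all genes, with a median of −0.01 (edgeR; 4 had an unadjusted p under 0.05, and DESeq2 and limma-voom called the same number). Pdlim2, which encodes a ubiquitin ligase described as targeting nuclear RELA, had 65.4, 77.4 and 63.4 TPM in PBS and 43.4, 41.6 and 36.3 TPM in CSE (−0.55 ± 0.08; edgeR adjusted p = 0.00166). Otud7b, a deubiquitinase acting on TRAF3, fell by 0.42 ± 0.07 (adjusted p = 0.00429). Without PBS replicate 1, Commd1 was called higher. None of 10 nuclear cofactors was called (edgeR; 1 had an unadjusted p under 0.05, DESeq2 called 1 and limma-voom 0), with Akirin2 at 0.32 ± 0.10 (adjusted p = 0.0767) and Rps3, which encodes a ribosomal protein that also binds RELA, at 0.15 ± 0.09 (adjusted p = 0.307). Akirin2 was called without PBS replicate 1 (0.45, edgeR adjusted p = 0.0064).

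Ligand genes of the pathway were scarce in these cells. Of 12 listed, 3 were tested and none was called (edgeR, DESeq2 and limma-voom; 0 had an unadjusted p under 0.05), the median being 0.08. Tnf had 4 counts and Il1b 1 count over all 6 libraries. Il18 had 20.3 to 28.7 TPM in PBS and 17.5 to 19.2 TPM in CSE (−0.28 ± 0.16; edgeR adjusted p = 0.3), and Tnfsf12, which encodes TWEAK, had 16.1 to 19.3 and 14.8 to 20.4 TPM (0.21 ± 0.13; adjusted p = 0.358).

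Target genes of NF-kB moved in both directions. Of 27 tested out of 35 listed, 5 rose, 2 fell and 20 were not called, where 4.32% of all genes were called higher and 7.12% lower. The median was 0.24 against 0.01 for all genes. Ptgs2, the inducible cyclooxygenase, had 6.14, 5.98 and 7.89 TPM in PBS and 21.7, 19.6 and 15.7 TPM in CSE (1.55 ± 0.11; edgeR adjusted p = 1.15e-05). Tnfaip8, which encodes an apoptosis regulator, had 97.2, 117 and 111 TPM in PBS and 165, 147 and 152 TPM in CSE, a rise of 0.56 ± 0.07 (edgeR adjusted p = 0.000592). The monocyte chemoattractant Ccl2 had 302, 311 and 235 TPM in PBS and 471, 416 and 459 TPM in CSE (0.76 ± 0.12; edgeR adjusted p = 0.00215). Vcam1, an adhesion gene, had 641, 598 and 661 TPM in PBS and 484, 452 and 430 TPM in CSE (−0.40 ± 0.08; edgeR adjusted p = 0.00565). In each of these 4 genes the groups did not overlap. The other called genes were Lcn2 and Saa3, which rose, and Gadd45b, which fell; Saa3 and Gadd45b are outside the naming rule and were named after their values were seen. Saa3 and Gadd45b were not called without PBS replicate 3. Gadd45b was also lost without CSE replicate 1 or CSE replicate 3, and with the replicate number as a block. Without PBS replicate 1, Cxcl1 and Ier3 were called as well, giving 7 higher. With all libraries, Cxcl1 was also called higher by DESeq2, with no filter on low counts and with the replicate block.

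A list of 14 genes described as needing IkappaB-zeta held 7 tested genes. Of these 2 rose, Ccl2 and Lcn2, where 4.32% of all genes were called higher, and the other 5 were not called. Only 2 of the 7 had an unadjusted edgeR p under 0.05. All 7 had fitted changes above 0, with a median of 0.25, against 6853 of the 13451 genes tested, and these directions were not tested. Lcn2, which encodes the iron-scavenging protein lipocalin 2, had 13.9, 17.0 and 10.8 TPM in PBS and 21.1, 24.6 and 27.6 TPM in CSE (0.94 ± 0.19; edgeR adjusted p = 0.0103), and was not called without CSE replicate 3 (0.80, adjusted p = 0.0507). The list shares 8 genes with the target list, so the 2 are not independent.

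**Figure D4:**
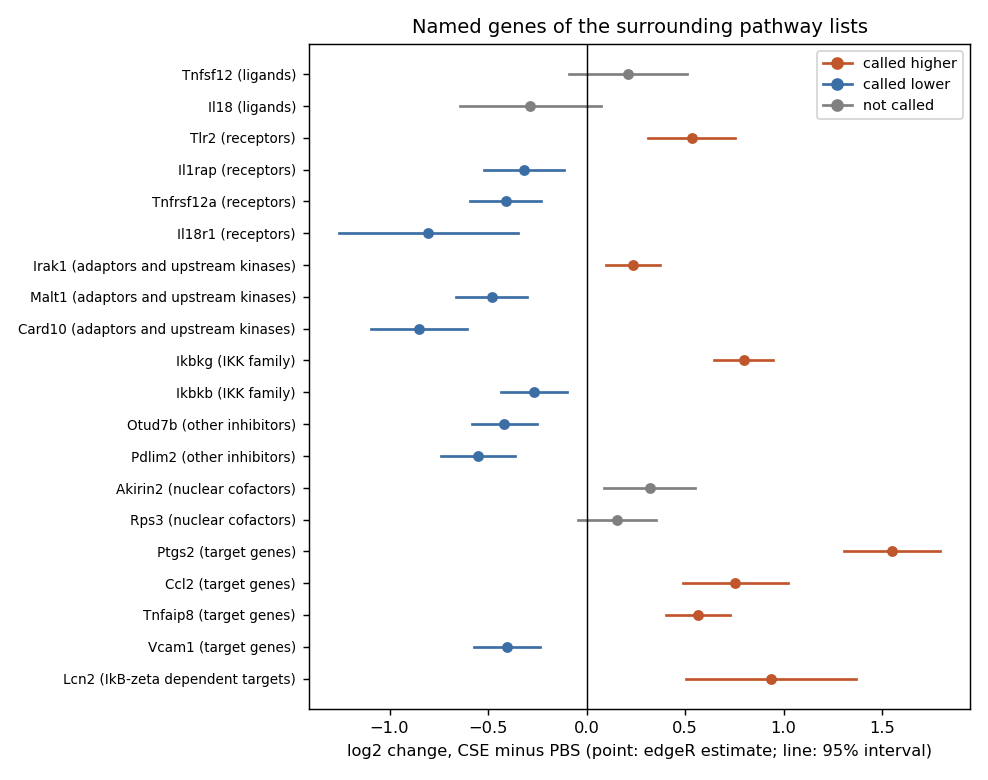
Log2 change with CSE of the pathway genes chosen by the naming rule (at most 4 called genes a list, so Saa3 and Gadd45b are not drawn), with edgeR estimates as points and 95% intervals as lines; orange marks genes called higher, blue genes called lower and grey genes not called. Ptgs2 (1.55) and Lcn2 (0.94) are furthest to the right among the genes drawn, and Card10 (−0.85) and Il18r1 (−0.80) furthest to the left.

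The libraries held 12093009 to 24050167 estimated counts, so that 3 counts correspond to 0.125 to 0.248 CPM. Markers of the line were present unevenly: the lung factor Nkx2-1 had 98.7 to 130 TPM and Krt8 152 to 218 TPM, whereas Epcam had 1.42 to 2.63 TPM and Krt18 0.0508 to 0.55 TPM. Ptprc, which marks leukocytes, had 0.0906 to 0.366 TPM and the endothelial gene Cdh5 was at 0 counts in all libraries, which allows up to 0.125 to 0.248 CPM. The summed TPM of 12 leukocyte markers, led by Cd74, was 88.2 to 114 in PBS and 61.6 to 70.8 in CSE, with 7 of the 12 under 1 TPM in every library. That sum follows Cd74, and of the 5 tested 1 fell (Cd74) and 1 rose (Csf1r, 0.94 ± 0.21; edgeR adjusted p = 0.0147), although the TPM of Csf1r overlapped between groups. The summed TPM of 8 fibroblast markers, led by Dcn, was 872 to 1133 and 482 to 548, with 4 under 1 TPM. This sum follows Dcn, and of the 4 tested 2 fell (Dcn and Col1a1) and 1 rose (Pdgfra, 2.50 to 2.81 TPM in PBS and 3.98 to 5.11 in CSE; edgeR adjusted p = 0.00125). The sum of 10 epithelial markers, led by Krt19, was 1285 to 1400 and 713 to 806, with 3 under 1 TPM, and 4 of 7 tested fell. With the replicate number as a block, or without PBS replicate 1 or any 1 CSE library, 2 of the 7 were called lower (Cdh1 and Krt19). That of 7 endothelial markers, led by Flt1, was 5.99 to 7.38 and 4.35 to 6.07, with 4 under 1 TPM, and 1 of 3 tested fell. Beside these marker counts, 4.32% of all genes tested were called higher and 7.12% lower. The part of these shifts in the changes of Nfkbiz and Rela was not tested, and in bulk RNA fewer cells of a kind and less RNA per cell cannot be told apart.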

How the data were processed

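Per the file headers, each deposited file gives for every transcript an estimated count and a TPM value, in kallisto's layout. TPM was scaled by the authors for effective length and to 1 sum per library, per the file headers. The submitters' processing notes name GRCm38, FastQC 0.12.1, fastp 0.20.1, DESeq2 1.40.2 and kallisto 0.46.2, which divides ambiguous reads among transcripts; strand handling is not given in the sources used here.

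Of 118489 transcripts, 116816 matched GENCODE vM21, and the other 1673 (0.638% to 0.664% of counts) were left out. Estimated counts were summed per gene, rounded, filtered by filterByExpr (minimum count 10), scaled by TMM and fitted in edgeR 4.0.16 (quasi-likelihood, both directions, Benjamini-Hochberg, threshold 0.05, 95% intervals). Transcripts were fitted likewise. Shares had exact permutation tests over libraries. Libraries of a group differed beyond sampling noise (chi-square over its degrees of freedom at least 5.61), so none was a duplicate. The fit was tested on simulated counts. Genes and lists were chosen with earlier results of these data known. All 10 genes are named; of each pathway list, the called genes up to the 4 of smallest p, or the 2 of smallest p where none was called. Named outside this rule, after their values were seen, were Saa3, Gadd45b, Cxcl1, Ier3, Irak2, Myd88, Commd1, Tnf, Il1b, Chuk, Ikbke, Tbk1, G6pdx and the marker genes other than Ptprc, Cdh5, Col1a1 and Epcam. Promoters are RefSeq's (GRCm38.p6); those of Relb, Nfkb1 and Nfkbiz were not used. Other software was matplotlib 3.10.9, limma 3.58.1, pandas 2.3.3, DESeq2 1.42.0, R 4.3.3 and Python 3.11.15.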

Additional observations from a re-analysis of the deposited data

How the results depend on the processing

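The 17 alternatives changed the scaling (RLE, or library size alone), the tool (DESeq2 or limma-voom), the filter (none, or at least 5 CPM on average), the scale (an effective length offset, or limma fitted to log2(TPM + 1) or log2(TPM + 0.1)), the design (replicate number as a block), the transcripts (protein-coding ones alone, chosen after seeing the data) or left out 1 library. Nfkbiz and Rela were called under all of them, except Rela without CSE replicate 2 or 3, so 1 to 2 of the 10 genes were called with a library left out, and 3 with protein-coding transcripts. Of 170 values for the 10 genes, 159 kept direction and side of the threshold. Directions near 0 reversed for Rel (0.00167 with no filter and 0.00404 with the block; leaving out a library gave -0.0772 to 0.0951), for Nfkbia (-0.00192 with the length offset, -0.0856 on log2(TPM + 1) and -0.0859 on log2(TPM + 0.1)) and for Nfkbie (-0.0895 to 0.0339 with a library left out, reversed without PBS replicate 1). The pathway lists held 18 called genes, and 12 to 24 with a library left out. Beside them, calls over all genes were 1539 in the main fit (11.4% of those tested), and 837 to 1941 with a library left out.

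The labels do not say whether same-numbered libraries were handled together. Deviations from the group means correlated at -0.12, 0.01 and -0.06 between same-numbered libraries, and at -0.09 to 0.13 between the others. With 3 libraries in a group, these values cannot exclude pairing. With the replicate block, 2 of the 10 genes and 14 pathway genes were called, calls over all genes went from 1539 to 1022, transcript calls from 308 to 2 and Nfkbiz transcript calls from 1 to 0 (edgeR; 1 had an unadjusted p under 0.05). Each library left out also gave 0 Nfkbiz transcripts (1 at an unadjusted p under 0.05) and 12 to 124 transcript calls in all. Over all genes, 963 were called when PBS replicate 3 was absent, 859 when CSE replicate 2 was, and 837 when CSE replicate 3 was. The main split was 581 higher and 958 lower; it was 224 and 774 on log2(TPM + 1), 220 and 765 on log2(TPM + 0.1), 1052 and 1145 with no filter, and 967 and 974 without PBS replicate 1. The files give no error for assigning reads to transcripts.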
